A study of Mus musculus with 6 samples.

Results

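Adipokines are proteins that fat cells release into the blood or the surrounding tissue. The group examined here holds 9 of them, chosen by name: adiponectin (Adipoq), leptin (Lep), resistin (Retn), adipsin (Cfd), retinol binding protein 4 (Rbp4), apelin (Apln), the NAD-producing enzyme visfatin (Nampt), chemerin (Rarres2) and neuregulin 4 (Nrg4). Their transcripts were looked up in a table of 37024 rows and 19509 gene symbols. Of the 9 genes, 7 had at least 1 row, and Retn and Cfd were not analysed here. The row with the highest total count stood for a gene with several rows. All 7 passed the filter on low counts, which left 9872 rows to test.

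The measurements were bulk RNA-seq of inguinal white adipose tissue (iWAT), the large subcutaneous fat depot of the mouse, after 12 weeks of Western diet. The 3 Lexis-AdWT mice carried the floxed Lexis allele without Cre. The 3 Lexis-AdKO mice carried the floxed allele with Adipoq-cre, in which the adiponectin promoter drives the recombinase and so restricts deletion of this long noncoding RNA gene to fat cells. Both groups were therefore Lexis fl/fl, on a C57BL/6 background and on the same diet, and the controls were littermates. The age and sex of these particular mice are not given in the sources used here. Adipoq is thus both a measured gene and the source of the Cre driver, and whether the transgene adds reads to the Adipoq row was not tested.

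Leptin signals the size of the fat store to the brain, and its transcript is known to be higher in larger fat cells. Adiponectin circulates at high levels, is made almost only by fat cells, and is known to be lower in obesity. The remaining proteins act nearer to the tissue or on other organs: chemerin attracts immune cells, apelin acts on vessels, neuregulin 4 acts on the liver, RBP4 carries retinol in plasma, and NAMPT is the rate-limiting enzyme of NAD salvage, inside cells and in secreted form.

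Total counts lay between 14470542 and 17882713 per library. The Lexis row (4930412L05Rik) had 8, 9 and 8 counts in the AdWT libraries and 21, 11 and 13 in the AdKO libraries, and it was not lower in the libraries labelled AdKO. These counts are few, and which exon the row covers is not given in the sources used here. Groups are accordingly named by their labels. Of 9 fat cell genes with a row, Fabp4, Lpl and Dgat2 were high in every library. Others were low in the highest of their several rows. Pnpla2 was listed at 0 in every library, and Plin1 and Cd36 reached at most 38.6 and 21.52 CPM. AdWT 2 held more skeletal muscle transcripts than the others, with a summed 210.7 CPM (counts per 1000000, scaled by TMM) over 12 muscle genes against 24.04 to 52.54. Of 8 muscle genes tested, 7 were lower in AdKO at an unadjusted p under 0.05, beside 2.98% of all rows, and none passed after adjustment (lowest edgeR adjusted p = 0.817). Ckm, muscle creatine kinase, had 87, 576 and 29 counts in AdWT and 0 in each AdKO library. AdWT 3 and AdKO 3 held liver transcripts, with 355.2 and 140.7 summed CPM over 4 liver genes against 6.543 to 22.96, and epithelial transcripts, with 22.48 and 53.66 against 1.898 to 2.956. The summed lymph node markers (52.52 to 72.37 CPM) and progenitor markers (3522 to 10450 CPM) overlapped between the groups.

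Per kilobase of transcript, adiponectin was the most abundant of the 7 and leptin came next. Counts were divided by the longest coding transcript of each gene and expressed as a percentage of Adipoq in the same library. Lep stood at 43.4% to 66.9% of Adipoq and Rarres2 at 21.7% to 34.1%. Nampt followed at 1.28% to 1.94%. Nrg4, at 0.225% to 0.29%, and Apln, at 0.157% to 0.405%, overlapped, so their order cannot be set. Rbp4, read from the higher of its 2 rows, was the lowest at 0.0573% to 0.11%. Apart from Nrg4 and Apln, no neighbours in this order overlapped over the 6 libraries. The other Rbp4 row was nearly as large, with a total of 416 counts beside 441. The place of Rbp4 under Apln therefore holds for the higher row alone.

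**Figure D1:**
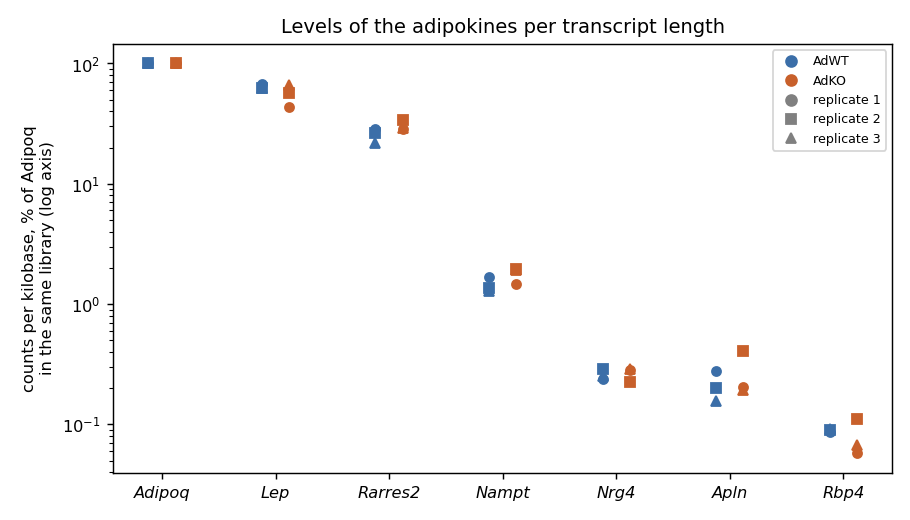
Level of each adipokine per kilobase of its longest coding transcript, as a percentage of Adipoq in the same library, on a log axis. Each point is 1 library, blue for AdWT and orange for AdKO, with the marker giving the replicate. Lep lies between 43.4% and 66.9%, and Nrg4 and Apln overlap.

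The low places of Nrg4 and Rbp4 rest on a table that splits some genes over rows. Nrg4 had 5 rows and Rbp4 had 2, and how reads shared by such rows were counted is not given in the sources used here. Pnpla2, the main triglyceride lipase of fat, had 4 rows and was listed at 0 in every library, and Plin1, the coat protein of the fat droplet, had 5 rows and only 31.78 to 38.6 CPM in the highest. These genes were named after their values were seen. Over the whole table, 20.1% of 8694 symbols with more than 1 row were at 0 in all libraries, beside 31.8% of 10815 symbols with 1 row, and the median total of the highest row was 43 and 18 counts. Summed over its 2 rows, Rbp4 had 138, 183 and 197 counts in AdWT and 106, 126 and 107 in AdKO. The row used had 67, 93 and 99 counts in AdWT and 50, 75 and 57 in AdKO. Its level per kilobase thus leaves out the other row, and whether the 2 rows share reads was not tested. Whether the split lowers the level of Nrg4 was not tested. Adipoq, Lep, Rarres2, Nampt and Apln had a single row each.

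Between the groups, none of the 7 adipokines passed the test. The edgeR quasi-likelihood test, adjusted by Benjamini-Hochberg over all 9872 rows, called 0 rows (0% of those tested), with 566 rows (5.73%) at an unadjusted p under 0.05. DESeq2 called 27 rows, and Lep had an adjusted p of 0.242 in it. Of the adipokines, 1 of 7 had an unadjusted p under 0.05, and it was lower in AdKO, beside 2.98% of all rows at that p in the lower direction and 2.76% in the higher. This count was 3 without AdWT 1 (Adipoq, Lep and Rbp4), 0 without AdKO 1, 0 with the muscle genes as a covariate and 2 with the rows of a symbol summed. Groups did not overlap for 1 of 7, again in the lower direction, beside 5.72% of all rows in the lower direction and 6.16% in the higher. The estimate was below 0 for 4 of 7 (Lep, Rbp4, Adipoq and Nrg4), beside 48.3% of all rows, and the log2 fold change of AdKO over AdWT had a median of -0.22 for the 7 genes and 0.01 over every row tested. Leaving out 1 library moved the median of the 7 to -0.37 without AdWT 1 or without AdKO 1 and to -0.14 without AdWT 2 and -0.12 without AdWT 3.

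**Figure D2:**
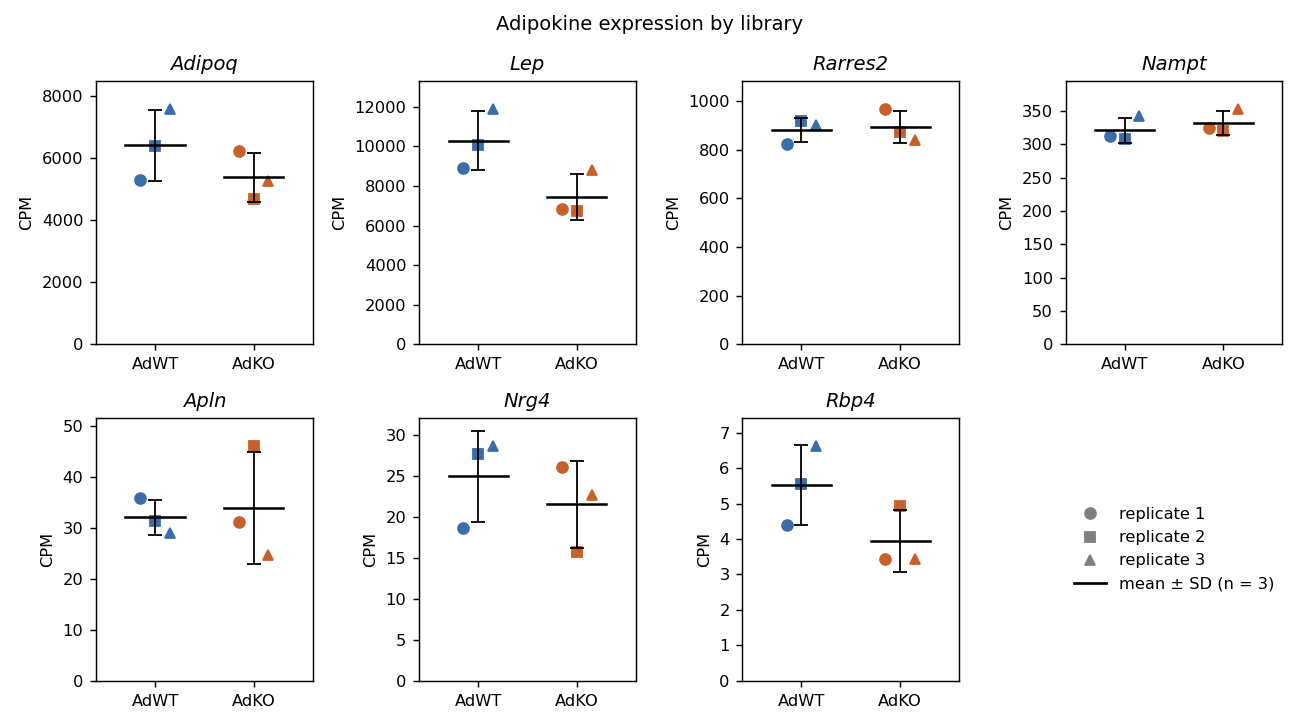
CPM of each adipokine in each library. Points are libraries with the marker giving the replicate, and the horizontal line and bars give the mean ± SD (n = 3). Among these rows, only for Lep do all 3 AdKO libraries lie under all 3 AdWT libraries.

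Leptin was the only one of the 7 rows standing for the adipokines whose groups did not overlap; the other row of Rbp4, described with that gene, did not overlap either. Lep is on chr6:29010220-29023877 of NCBIM37 (mm9), plus strand, with 3 exons in its longest coding transcript. It had 8918, 10070 and 11880 CPM in the AdWT libraries and 6829, 6756 and 8806 CPM in the AdKO libraries. All 3 AdKO libraries were lower than all 3 AdWT libraries, although the highest of them, AdKO 3, was close to the lowest, AdWT 1. The means were 10290 ± 1493 and 7463 ± 1163 CPM (SD, n = 3). The estimated difference was -27.5%, a log2 fold change of -0.46 (SE 0.16) and a fold of 0.725 with a 95% interval of 0.559 to 0.941 before any adjustment. With edgeR the unadjusted p was 0.0221 and the adjusted p was 0.851. An exact permutation test gave a two-sided p of 0.1, the smallest that 3 against 3 libraries can give.

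The Lep difference kept its direction in each of the 18 alternative settings run, between -0.60 without AdKO 3 and -0.36 without AdWT 3. Its adjusted p ranged from 0.242 to 0.998 over them, so no setting brought it past the threshold. The unadjusted edgeR p was above 0.05 in 3 of the 18, at 0.0789 without AdKO 1, at 0.0709 without AdKO 2 and at 0.151 with the muscle genes as a covariate (adjusted p = 0.918, 0.997 and 0.996). Without both libraries that held liver transcripts, a setting added after the data were seen, the log2 fold change was -0.48.

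Leptin also took a smaller share of all reads in the AdKO libraries, at 0.686%, 0.675% and 0.917% of counts beside 0.927%, 0.942% and 1.16% in the AdWT libraries. By total count it was the 10th row of the table. Its depth, from 99337 to 177547 counts per library, puts counting error far below the spread between mice.

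The promoter windows of 3 adipokines are shown: Lep, whose groups did not overlap, Adipoq, whose promoter drives the Cre, and Rbp4, which is read from 2 starts. Each is 250 bases before the start of the gene, from RefSeq (table build GRCm38.p6), placed on NCBIM37 by a single exact match at chr6:29009971-29010220 (plus strand), chr16:23146359-23146608 (plus strand) and chr19:38199812-38200061 (minus strand). Capitals mark matches on either strand to the TATA box (TATAA), the CCAAT box (CCAAT), the GC box (GGGCGG), a palindrome that C/EBP factors bind (TTGCGCAA) and a TCF/LEF core (ATCAAAG).

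Lep: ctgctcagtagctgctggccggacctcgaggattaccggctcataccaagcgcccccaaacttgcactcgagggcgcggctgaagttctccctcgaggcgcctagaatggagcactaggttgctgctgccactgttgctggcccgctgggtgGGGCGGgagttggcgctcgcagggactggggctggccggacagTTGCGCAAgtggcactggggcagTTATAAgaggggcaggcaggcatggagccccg

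Adipoq: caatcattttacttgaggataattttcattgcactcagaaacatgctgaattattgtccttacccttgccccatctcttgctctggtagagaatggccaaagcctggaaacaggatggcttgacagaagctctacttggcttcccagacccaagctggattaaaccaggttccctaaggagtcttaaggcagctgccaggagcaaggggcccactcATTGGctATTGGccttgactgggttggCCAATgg

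Rbp4: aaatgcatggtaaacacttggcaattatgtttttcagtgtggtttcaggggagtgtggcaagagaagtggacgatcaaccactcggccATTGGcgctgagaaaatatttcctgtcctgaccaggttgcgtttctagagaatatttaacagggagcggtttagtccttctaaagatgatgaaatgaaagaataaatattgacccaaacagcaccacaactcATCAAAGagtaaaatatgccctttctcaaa

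The Lep window held a GC box, the C/EBP palindrome and, just before the start, TATAA, which overlaps its own match on the other strand. TTGCGCAA was in 0.164% of 32851 promoter windows of the same length, while TATAA was in 22.8% and GGGCGG in 32.7%. The Adipoq window held CCAAT at 3 places, with CCAAT in 33.8% of all windows. The Rbp4 window held CCAAT and ATCAAAG, the latter in 3.21% of all windows. The window of the other Rbp4 start, which lies within the annotated gene and is not printed, held TATAA and GGGCGG and neither CCAAT nor ATCAAAG. RefSeq windows were matched for 6 of the 7 adipokines, all but Rarres2. None of them held the strict PPAR response element, a direct repeat of AGGTCA with 1 base between, which was in 0.0335% of windows. A match is only these letters in this window.

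Adiponectin lay lower on average in AdKO, within the spread of the libraries. Adipoq is on chr16:23146609-23158101, plus strand, with 3 exons. It had 5288, 6395 and 7582 CPM in the AdWT libraries and 6236, 4677 and 5254 CPM in the AdKO libraries. The groups overlapped, with AdKO 1 above AdWT 1. The log2 fold change was -0.25 (SE 0.17), a fold of 0.839 with a 95% interval of 0.64 to 1.1 (edgeR adjusted p = 0.853, exact permutation p = 0.2). Leaving out 1 library at a time moved it between -0.37 without AdWT 1 and -0.13 without AdWT 3, with an adjusted p of at least 0.415, and it was -0.10 without both AdWT 3 and AdKO 3. With the muscle genes as a covariate it was -0.46 (SE 0.34, edgeR adjusted p = 0.996).

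The leptin to adiponectin ratio is often used as a measure of fat tissue state. The ratio of Lep to Adipoq counts was 1.69, 1.58 and 1.57 in the AdWT libraries and 1.1, 1.44 and 1.68 in the AdKO libraries. AdWT libraries were close together, and AdKO 3 lay among them. The mean log2 ratio differed by -0.22 in AdKO, at 0.47 ± 0.31 beside 0.69 ± 0.06 (SD, n = 3), and leaving out 1 library moved the difference between -0.05 without AdKO 1 and -0.36 without AdKO 3. The groups overlapped.

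Markers of fat cells were measured beside the adipokines. Over 9 adipocyte markers that include no adipokine, the summed level was 49840, 55340 and 51400 CPM in AdWT and 46220, 49640 and 44700 CPM in AdKO, so that the groups just missed each other. Of 7 markers tested, 5 were lower and 2 higher (Plin1 at 0.10 and Lpl at 0.03 on the log2 scale), beside 48.3% of all rows lower, with 2 lower at an unadjusted p under 0.05, beside 2.98% of all rows, and the median was -0.15 on the log2 scale. Cd36, a fatty acid uptake protein read from the highest of 5 rows, had 20.55, 21.52 and 14.25 CPM in AdWT and 10.24, 10.74 and 7.872 CPM in AdKO (log2 fold change -0.97, SE 0.20, edgeR adjusted p = 0.817), and Aqp7, the glycerol channel, had a log2 fold change of -0.24 (SE 0.09). Fabp4, the fatty acid carrier that makes up most of the sum, had 31870, 33710 and 35050 CPM in AdWT and 28850, 29960 and 27210 CPM in AdKO. In bulk tissue, fewer fat cells and less RNA per fat cell cannot be told apart. With the adipocyte markers as a covariate the log2 fold change of Lep was -0.53 (SE 0.18) and that of Adipoq -0.19 (SE 0.18), with edgeR adjusted p of 0.961 for both.

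**Figure D3:**
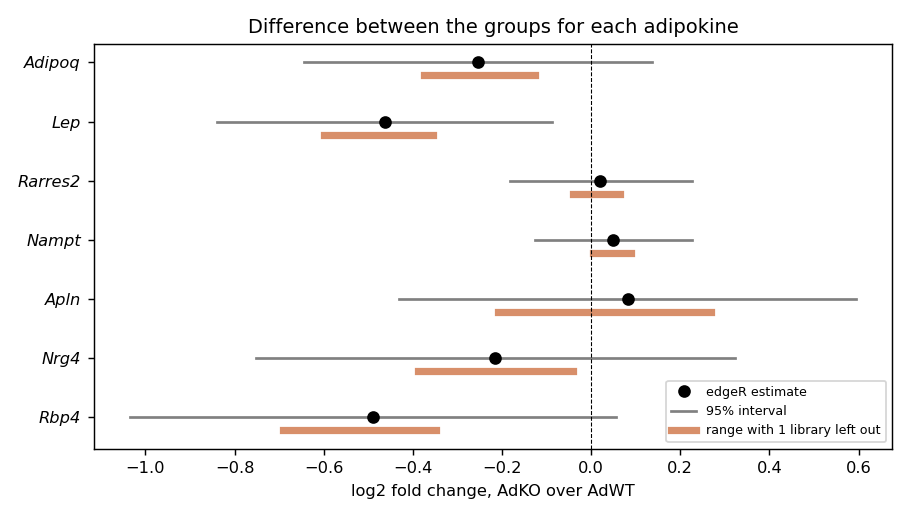
Log2 fold change of AdKO over AdWT for each adipokine (point), its unadjusted 95% interval (grey line) and the range of the estimate with 1 library left out (orange bar). Among the 7 rows plotted, the interval leaves out 0 only for Lep (the other row of Rbp4, not plotted, has a fold interval of 0.446 to 0.851), and the orange bars of Apln and Rarres2 cross 0.

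Rbp4 was read from 2 rows of similar size, and both were lower in AdKO. The gene lies on chr19:38191110-38199811, minus strand, with 6 exons. Its higher row had 67, 93 and 99 counts in AdWT and 50, 75 and 57 in AdKO. The groups overlapped, since AdKO 2 exceeded AdWT 1, and the log2 fold change was -0.49 (SE 0.23, edgeR adjusted p = 0.851). The other row had 71, 90 and 98 counts in AdWT and 56, 51 and 50 in AdKO. There the groups did not overlap, and the log2 fold change was -0.70 (SE 0.20), with an unadjusted p of 0.00913 and an adjusted p of 0.847 by edgeR.

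Summed over both rows, Rbp4 had 9.03, 10.94 and 13.18 CPM in AdWT and 7.287, 8.3 and 6.43 CPM in AdKO, so the summed groups did not overlap either. The sum gave a log2 fold change of -0.59 (SE 0.19, edgeR adjusted p = 0.838). The higher row went from -0.49 to -0.25 when AdWT 3 and AdKO 3 were both left out. RBP4 is also a main product of the liver, and these are the libraries that held liver transcripts. Ttr, the liver partner that binds RBP4 in plasma, had 56, 155 and 2225 counts in AdWT and 35, 136 and 929 in AdKO, and the fibrinogen gene Fga had 0, 1 and 52 counts in AdWT and 2, 0 and 33 in AdKO. Summed Rbp4 was highest in AdWT 3 among the AdWT libraries and lowest in AdKO 3 among the AdKO libraries. The part of liver transcripts in the Rbp4 values was not tested.

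**Figure D4:**
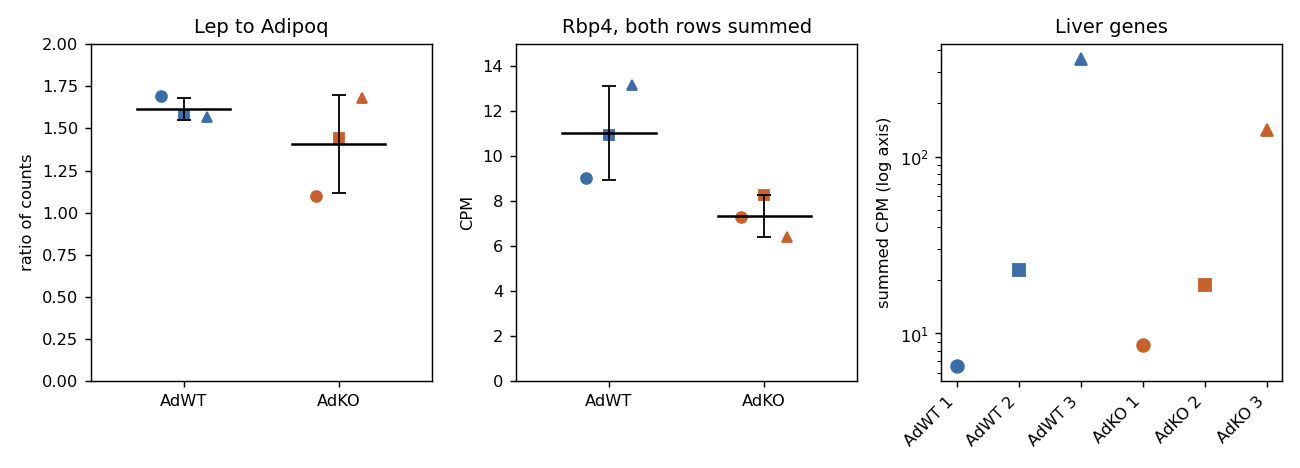
Left, ratio of Lep to Adipoq counts; middle, CPM of Rbp4 summed over its 2 rows, both with mean ± SD (n = 3); right, summed CPM of 4 liver genes per library on a log axis. AdKO 3 has a ratio of 1.68, among the AdWT libraries, and AdWT 3 and AdKO 3 hold most of the liver transcripts.

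The remaining retinol genes showed no shared direction. Of 8 genes that bind, store or oxidise retinol, 5 were higher and 3 lower. Aldh1a1, which oxidises retinaldehyde, was the most abundant of the 8 and had 288, 333.2 and 479.2 CPM in AdWT and 325.3, 266.8 and 314.9 CPM in AdKO (log2 fold change -0.28, SE 0.19).

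Chemerin was even across the libraries. Rarres2 is on chr6:48519697-48522669, minus strand, with 6 exons. It had 823.6, 919.7 and 900.1 CPM in AdWT and 966.6, 874.2 and 840.4 CPM in AdKO. The log2 fold change was 0.02 (SE 0.09), and the 95% interval of the fold, 0.882 to 1.17, bounds any difference on either side (edgeR adjusted p = 0.975). The sign turned without AdWT 1 or without AdKO 1, at -0.03 and -0.04. Some exon bases of Rarres2 are shared with Lrrc61 on the other strand, and the strand setting of the counting is not given in the sources used here. Its receptor Cmklr1 was abundant, with 988.5, 976.9 and 1329 CPM in AdWT and 1111, 1130 and 829.7 CPM in AdKO, and its groups overlapped (log2 fold change -0.10, SE 0.17).

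Nampt was as even as chemerin. The gene lies on chr12:33505200-33538234, plus strand, with 11 exons. It had 312.4, 307.7 and 342.5 CPM in AdWT and 324, 319.7 and 352.5 CPM in AdKO. The groups overlapped, and the log2 fold change was 0.05 (SE 0.08), with a fold interval of 0.916 to 1.17 (edgeR adjusted p = 0.911). It became -0.06 with the muscle genes as a covariate. Of 3 other genes of NAD salvage that were tested, 2 were higher and 1 lower, none at an unadjusted p under 0.05. Nmrk1, a nicotinamide riboside kinase, was read from the higher of 2 rows. Its groups did not overlap, but it had only 9, 11 and 10 counts in AdWT and 18, 13 and 14 in AdKO.

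Apelin varied more within AdKO than between the groups. Apln is on chrX:45378323-45388030, minus strand, with 3 exons. It had 35.86, 31.44 and 29.04 CPM in AdWT and 31.21, 46.11 and 24.7 CPM in AdKO. AdKO held both the highest and the lowest library. The log2 fold change was 0.08 (SE 0.22, fold interval 0.742 to 1.51, edgeR adjusted p = 0.956), and it was -0.21 without AdKO 2. The apelin receptor gene Aplnr was also highest in AdKO 2, with 116.8, 61.75 and 67.31 CPM in AdWT and 76.58, 156.7 and 56.84 CPM in AdKO. The summed level of 8 endothelial markers was 1463, 1093 and 1015 CPM in AdWT and 1227, 1412 and 989.7 CPM in AdKO, and its part in the apelin values was not tested.

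Nrg4 was also within its spread. The gene lies on chr9:55068029-55174651, minus strand, with 8 exons in its longest coding transcript. Its highest row had 18.58, 27.68 and 28.64 CPM in AdWT and 26.12, 15.68 and 22.71 CPM in AdKO. The lowest library was AdKO 2, but AdWT 1 lay under AdKO 1 and AdKO 3. The log2 fold change was -0.22 (SE 0.23, fold interval 0.594 to 1.25, edgeR adjusted p = 0.885), and the only other row that was tested gave -0.18 (SE 0.28). Leaving out 1 library moved the estimate to -0.04 without AdKO 2, to -0.14 without AdWT 2 and -0.12 without AdWT 3, and to -0.39 without AdWT 1 and -0.38 without AdKO 1. Exon bases are shared with Fbxo22 and Gm15625 on the other strand.

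Among the receptors and partners of the adipokines, 6 of 10 genes with a row were tested, 3 higher and 3 lower, and none had an unadjusted p under 0.05. Lepr, the leptin receptor (highest of 5 rows), had 82, 52 and 44 counts in AdWT and 66, 88 and 123 in AdKO. Each AdKO library exceeded the AdWT mean, but the groups overlapped (log2 fold change 0.64, SE 0.29, edgeR adjusted p = 0.851). Adipor2, an adiponectin receptor (highest of 3 rows), had 91, 158 and 165 counts in AdWT and 137, 116 and 128 in AdKO. Erbb4, a receptor for neuregulin 4, was listed at 0 in every library, and its partner Erbb3 had 34 to 67 counts per library.

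The genes that fold adiponectin and assemble its multimers lay near the control level. Of 5 tested, 2 were higher and 3 lower, with a median of -0.02 on the log2 scale and none at an unadjusted p under 0.05. Erp44, which retains adiponectin in the endoplasmic reticulum, had 1863, 2041 and 1792 counts in AdWT and 1656, 1955 and 1924 in AdKO (log2 fold change -0.02, SE 0.07). Ero1l, which acts with it, had a log2 fold change of -0.06 (SE 0.09). Plod3, a lysyl hydroxylase, was the member nearest the threshold, at -0.16 (SE 0.07, edgeR adjusted p = 0.851). P4ha1, a prolyl hydroxylase, was too low to test in the highest of its 3 rows. It had 10, 11 and 10 counts in AdWT and 3, 7 and 3 in AdKO, which did not overlap.

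Of the regulators known to act on adipokine genes, 5 were tested, 1 higher and 4 lower. Foxo1, a factor that acts on the Adipoq promoter, had 497.7, 539.8 and 597.9 CPM in AdWT and 470.2, 436 and 490.2 CPM in AdKO. Its groups did not overlap, and its log2 fold change was -0.23 (SE 0.09), with an unadjusted p of 0.038 and an adjusted p of 0.851 by edgeR. Pparg, the central factor of fat cell identity, was read from the higher of 2 rows. It had 266, 300 and 315 counts in AdWT and 231, 328 and 250 in AdKO (log2 fold change -0.10, SE 0.17). Its partner Rxra had a log2 fold change of -0.09 (SE 0.09).

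Other factors that fat tissue secretes spread in both directions. Of 17 tested, 9 were higher and 8 lower. Sfrp5, a secreted inhibitor of Wnt signalling, had 1206, 1602 and 2192 CPM in AdWT and 1254, 795.8 and 988.4 CPM in AdKO. AdKO 1 exceeded AdWT 1, so the groups overlapped, and the log2 fold change was -0.72 (SE 0.24, edgeR adjusted p = 0.851). Fstl1, a follistatin-like protein among the most abundant of the list, had a log2 fold change of -0.01 (SE 0.09).

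Lcn2 and Ccl2, both linked to inflammation, had an unadjusted edgeR p under 0.05 in the higher direction and did not pass after adjustment. Lcn2, a lipocalin that binds bacterial iron carriers, had 15.18, 8.429 and 9.435 CPM in AdWT and 13.96, 36.23 and 70.18 CPM in AdKO. AdKO 2 and AdKO 3 were above every AdWT library and AdKO 1 was not, with a log2 fold change of 1.87 (SE 0.54, edgeR adjusted p = 0.847). Ccl2, a chemokine for monocytes, had 13.81, 12.67 and 8.431 CPM in AdWT and 13.2, 17.39 and 20.79 CPM in AdKO (log2 fold change 0.56, SE 0.23). The summed level of 8 macrophage markers was 1642, 1271 and 895.9 CPM in AdWT and 1459, 1750 and 1700 CPM in AdKO, and AdKO 3, with the most Lcn2, also held the most epithelial transcripts. Their part in these values was not tested.

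**Figure D5:**
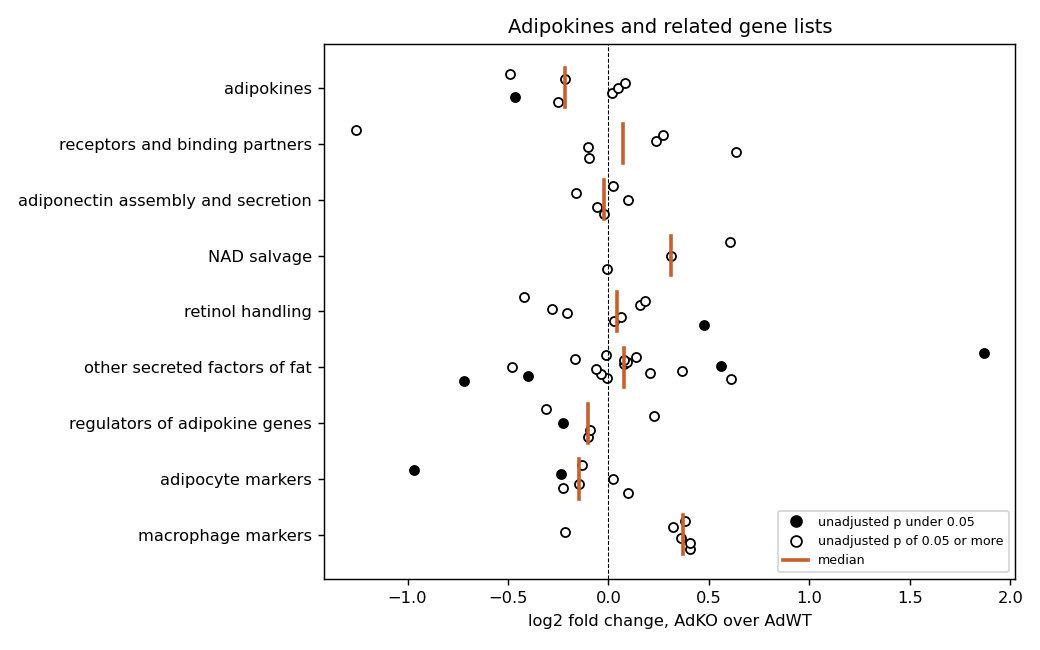
Log2 fold change of AdKO over AdWT for the 7 adipokines and for the tested genes of 8 related lists. Each circle is a gene, filled where the unadjusted edgeR p is under 0.05, and the orange bar is the list's median. No gene passed after adjustment, and the medians lie between -0.22 for the adipokines and 0.37 for the macrophage markers.

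The genes whose log2 CPM followed each adipokine most closely over the 6 libraries were looked up among the other rows with a mean of at least 10 CPM, 4746 for Rbp4 and 4745 for each other adipokine. With so many rows and only 6 libraries, these are descriptions, and they share library preparation and depth. Lep was closest to Fam89a (Pearson r = 0.986), Ctnna1 (0.976) and Tfip11 (0.964), and Adipoq was closest to Hoxc5 (0.999), Mto1 (0.995) and Galm (0.995). No gene stood among the closest 3 of more than 1 adipokine.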

How the data were processed

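Bulk RNA-seq counts of iWAT were analysed for 3 Lexis-AdWT and 3 Lexis-AdKO libraries, grouped by the genotype in the sample labels. The authors prepared the libraries with the KAPA Stranded RNA-Seq Kit, sequenced them on an Illumina HiSeq 3000 and aligned reads to mm9 with HISAT2. The deposited values are raw counts per row, without normalization. The counting tool, annotation and strand setting are not given in the sources used here. The submitters' processing notes name DESeq2 and mm9.

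Counts were filtered with filterByExpr, scaled by TMM and tested with the quasi-likelihood test of edgeR 4.0.16 in R 4.3.3, with Benjamini-Hochberg adjustment over 9872 rows and a threshold of 0.05. Fold intervals (95%) are from the same fit and unadjusted. DESeq2 1.42.0, other scalings, filters, covariates and left-out libraries were alternatives. Single values were compared by an exact two-sided permutation test on log2 CPM with 0.5 added to each count. The common biological coefficient of variation was 0.196, and each library held at least 14470542 counts, so precision is set by the spread between 3 mice. No libraries were duplicates. The steps were tested on simulated data with planted changes larger than any adipokine estimate here. That test does not show whether differences as small as those of the adipokines would be found.

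The adipokines and the gene lists were chosen with earlier results of these data known, and the liver genes were added after the data were seen. From each list the text names genes with an unadjusted p under 0.05 or groups that did not overlap, and up to 4 of the most abundant; Lepr, Adipor2, Erbb3, Erbb4, Ttr, Pnpla2, Plin1, Fga, Plod3, Ero1l and Pparg were named after their values were seen where they fall outside this. Some genes that meet this rule are not reported here. Positions and transcript lengths are from GENCODE vM1 (NCBIM37).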

Additional observations from a re-analysis of the deposited data

How the results depend on the processing

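Lep, Adipoq, Rbp4 and Nrg4 kept their direction in all 18 settings run, and no adipokine passed an adjusted p of 0.05 in any. Nampt became -0.057 (log2 fold change) with the muscle genes as a covariate. With 1 library left out, Rarres2 ranged from -0.04 to 0.064 and Apln from -0.208 to 0.269, turning sign without AdWT 1 (-0.025) or AdKO 1 (-0.04) and without AdKO 2 (-0.208). DESeq2 called 27 rows where edgeR called 0, keeping rows with at least 1 count in any library gave 1, leaving out AdWT 3 and AdKO 3 together, chosen after seeing the data, gave 1, and leaving out 1 library gave 0 to 1. Rows at an unadjusted p under 0.05, 566 in the reported fit, were 356 with the muscle covariate and 329 (without AdWT 2) to 1208 (without AdWT 1) with 1 library left out. Scaling by library size alone split them into 313 higher and 162 lower, against 272 and 294. The causes were not tested. Summing rows of a symbol brought Rbp4 to -0.59 (edgeR adjusted p = 0.838).

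Whether the replicate numbers pair the samples is not given in the sources used here. Correlations were -0.07, -0.14 and 0.32 for the same number and between -0.326 and 0.394 for different numbers. With 3 libraries per group they cannot decide it. With the replicate block, 0 rows were called and 418 had an unadjusted p under 0.05, and Lep was -0.46 (SE 0.11, edgeR adjusted p = 0.941).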
